A study of Homo sapiens with 6 samples.

Results

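Neutrophil-attracting CXC chemokines are the members CXCL1, CXCL2, CXCL3, CXCL5, CXCL6, CXCL8 (formerly IL8) and PPBP (also called CXCL7), chosen by name as the family with an ELR motif that lies in one gene block on chromosome 4. All 7 genes were measured, by 10 probe sets of the 22215 tested and as 7 of the 11963 genes with a probe set of their own. A probe set is a group of short probes that reads 1 transcript or several related ones.

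The study compared growing WI-38 cells, which the labels call wild type, with senescent WI-38 cells that overexpressed RASv12, with 3 samples in each group and 1 array for each sample. WI-38 is a human diploid fibroblast strain from fetal lung, and RASv12 is a mutant RAS GTPase that stays switched on, whose gene of origin the labels do not name. Cells were infected by retrovirus and kept at 3% oxygen. The labels do not say whether the growing cells carried an empty vector, and they give Cy5 for the control samples and Cy3 for the RASv12 samples, so infection or dye, where they differed, cannot be told apart from RASv12. Whether the replicates were separate cultures is not stated, and the p-values therefore rest on a spread between arrays that may be technical.

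These chemokines are small secreted proteins that carry the residues glutamate, leucine and arginine (ELR) just before the first cysteines. Through that motif they bind the receptors CXCR1 and CXCR2 and draw neutrophils towards the cell that releases them. Fibroblasts make most of them in response to interleukin 1, through the transcription factor NF-kB, and they are standard parts of the secretory phenotype of senescent cells, whereas PPBP is best known as a product of platelets and their precursors.

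The promoters are shown to describe the members, and whether they bear on the measured changes was not tested. RefSeq (assembly GRCh38.p14) held a window from 250 bases before to 50 bases after the start of all 7 genes, and the stretch of 140 bases just before the start is printed 5′ to 3′ in the direction of transcription. Capitals mark GGAATTTCC, a letter string of the NF-kB type, searched on both strands.
CXCL1 (chr4:73869253-73869392, plus strand): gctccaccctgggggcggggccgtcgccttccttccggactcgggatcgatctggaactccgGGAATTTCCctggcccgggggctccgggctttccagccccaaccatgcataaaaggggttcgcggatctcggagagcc
CXCL2 (chr4:74099196-74099335, minus strand): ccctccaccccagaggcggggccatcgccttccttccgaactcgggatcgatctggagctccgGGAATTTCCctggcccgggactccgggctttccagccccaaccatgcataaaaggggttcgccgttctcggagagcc
CXCL3 (chr4:74038690-74038829, minus strand): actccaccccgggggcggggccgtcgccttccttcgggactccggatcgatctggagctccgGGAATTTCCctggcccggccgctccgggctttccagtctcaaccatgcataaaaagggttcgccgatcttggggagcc
CXCL5 (chr4:73998678-73998817, minus strand): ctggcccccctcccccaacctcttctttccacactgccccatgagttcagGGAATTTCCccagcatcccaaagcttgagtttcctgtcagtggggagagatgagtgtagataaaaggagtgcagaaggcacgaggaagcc
CXCL6 (chr4:73836538-73836677, plus strand): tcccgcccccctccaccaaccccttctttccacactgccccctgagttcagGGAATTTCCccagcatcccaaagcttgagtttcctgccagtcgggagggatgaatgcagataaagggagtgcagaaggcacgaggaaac
CXCL8 (chr4:73740429-73740568, plus strand): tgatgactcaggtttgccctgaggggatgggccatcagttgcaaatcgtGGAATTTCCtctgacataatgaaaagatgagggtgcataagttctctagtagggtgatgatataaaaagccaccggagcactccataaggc
PPBP (chr4:73988191-73988330, minus strand): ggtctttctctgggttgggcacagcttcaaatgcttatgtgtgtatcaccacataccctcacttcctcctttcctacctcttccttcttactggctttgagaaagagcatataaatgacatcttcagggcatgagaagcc

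GGAATTTCC occurred once in the windows of 6 members, on the strand of the gene and between 77 and 91 bases before the start, and not in the window of PPBP. Over all 35116 RefSeq windows of the same length, 0.461% held it on either strand. In CXCL1, CXCL2, CXCL3, CXCL5 and CXCL6 a further G stood directly before the string, as in 0.145% of all windows, and in CXCL8 it did not. TGANTCA, the letters of an AP-1 site, was found in the window of CXCL8 alone among the members, 137 bases before its start, and in 7.71% of all windows. The windows of CXCL5 and CXCL6 were 83.1% identical in a global alignment and those of CXCL1 and CXCL3 82.5%, with CXCL2 at 69.8% to CXCL1 and 73.7% to CXCL3. CXCL8 and PPBP were the least like the rest, with CXCL8 between 43.0% and 47.2% identical to any other member and PPBP between 43.8% and 47.2%. These matches describe letters in a window, and no binding was measured. No wider NF-kB pattern was searched. Windows as alike as these do not give independent matches, so the shares over all windows are not a test of the members.

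All 7 members rose in RASv12 cells, against 13.8% of all genes that rose by the same rule, and none fell, against 15.3% of all genes. The rule was an adjusted p under 0.05 in limma with Benjamini-Hochberg adjustment over all genes, on quantile-normalized log2(intensity + 16). CXCL1, CXCL2, CXCL3, CXCL5 and CXCL8 had log2 changes between 5.20 and 6.73. CXCL6 rose by 2.34 and PPBP by 1.15, a call that rests on dim values. The median over the members was 5.55, beside 0.020 over all genes. The order of the members by size of change is not a result, since it moved with the settings. CXCL5 was first as reported, CXCL8 was first with a pseudocount of 64 (5.10), and with the mean of all probe sets CXCL5 (4.72) stood below CXCL1 (5.20). All 3 RASv12 arrays lay above all 3 control arrays on each of the 10 probe sets, a pattern that 19.7% of all genes showed on their brightest probe set.

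**Figure D1:**
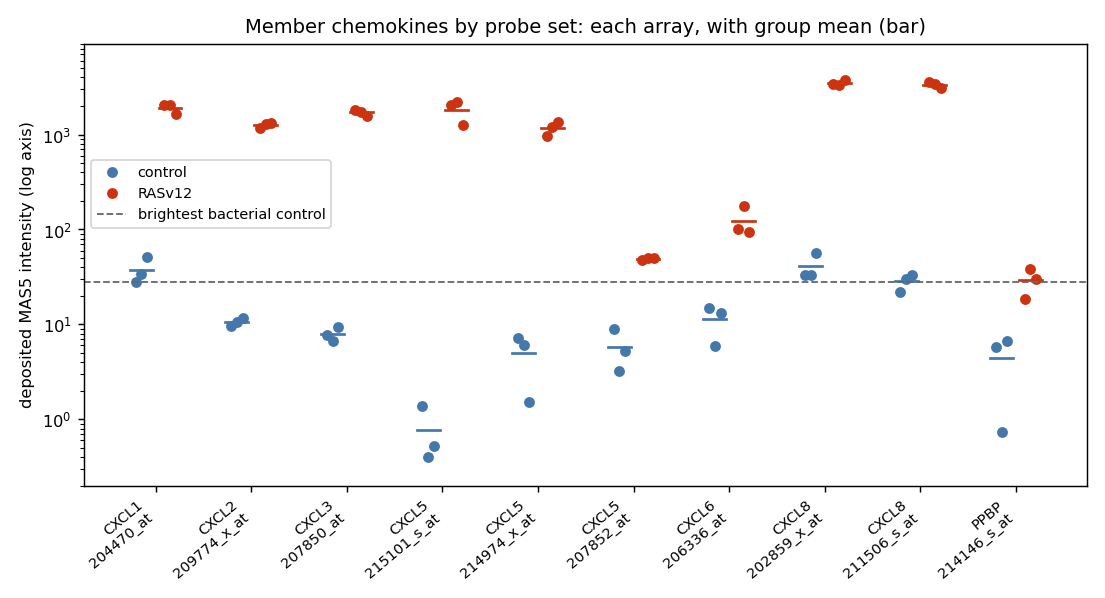
Deposited MAS5 intensity (log axis) of each probe set of the 7 members on each of the 6 arrays, control in blue and RASv12 in red, with the group mean as a bar and the brightest bacterial control (27.98) as a dashed line. The RASv12 arrays lie above the control arrays on every probe set, and most control values lie under the dashed line.

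Levels are given as deposited intensities, and a level at or under 27.98, the brightest of 27 control probe sets for bacterial transcripts on any array, is called dim. Where a group was dim, in all 3 samples or on average, a fold is a lower bound computed against that intensity. Such a bound follows the RASv12 level and is not a measure of how strongly a gene was induced. The probe sets of different genes bind with different strength, so the level of one member is not set against that of another. Precision is limited by the 3 arrays in each group.

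CXCL8, the prototype of the family and a strong ligand of both receptors, was read by a pair of probe sets. On the brighter, 202859_x_at, the control samples gave 33.4, 33.0 and 55.9 (values are in the order of replicates 1 to 3 throughout) and the RASv12 samples gave 3388, 3332 and 3792. The means were 40.8 ± 13.1 and 3504 ± 251 (SD, n = 3), an 86.0-fold difference. The control samples lay close above the dim level, and the RASv12 samples differed little among themselves. The log2 change was 5.99 ± 0.17 (SE; limma adjusted p = 5.4e-06). The other probe set, 211506_s_at, gave 22.2, 30.1 and 33.5 in control samples and 3547, 3388 and 3060 in RASv12 samples, a log2 change of 6.26 ± 0.13, so that both probe sets of CXCL8 showed the rise.

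CXCL1, CXCL2 and CXCL3 are the closely related GRO chemokines, which act mainly through CXCR2. CXCL1 gave 27.6, 33.8 and 51.4 in the control samples and 2031, 2032 and 1645 in the RASv12 samples. The group means were 37.6 ± 12.3 and 1903 ± 223 (SD, n = 3), a 50.6-fold difference, and 1 of the 3 control samples was dim. Its log2 change was 5.20 ± 0.18 (limma adjusted p = 7.2e-06). CXCL1 and CXCL8 were thus the members with a control level that was, on average, above the dim level, and in both control replicate 3 was the highest of the control samples.

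CXCL2 was dim in all control samples, at 9.72, 10.7 and 11.6, and gave 1178, 1286 and 1322 in RASv12 samples. The difference was at least 45.0-fold, with a log2 change of 5.55 ± 0.11 (limma adjusted p = 1.6e-06). CXCL3 was dim in all control samples too, at 7.80, 6.65 and 9.45, and gave 1836, 1733 and 1587 in RASv12 samples. Its difference was at least 61.3-fold, with a log2 change of 6.17 ± 0.093 (limma adjusted p = 4.6e-07), the smallest p of the family. The RASv12 values of both genes lay in a narrow band, with SDs of 75.1 around a mean of 1262 for CXCL2 and 125 around 1719 for CXCL3. The probe set of CXCL2, 209774_x_at, carries the suffix that marks probes shared with other sequences, and reads from its paralogs cannot be told apart from its own. The same limit holds for 202859_x_at of CXCL8 and 214974_x_at of CXCL5, which carry that suffix too.

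CXCL5, also known as ENA-78, was read by 3 probe sets, which differed in how they read RASv12 cells. On the brightest, 215101_s_at, the control samples gave 1.38, 0.40 and 0.52 and the RASv12 samples 2046, 2187 and 1262. All control values were dim, and RASv12 replicate 3 was the lowest of its group. The difference was at least 63.6-fold, and the log2 change of 6.73 ± 0.19 (limma adjusted p = 5.4e-06) depends on the pseudocount. It was 9.99 with a pseudocount of 1 and 4.82 with a pseudocount of 64. On 214974_x_at the RASv12 samples gave 961, 1200 and 1365 and the difference was at least 41.6-fold, and here RASv12 replicate 3 was the highest. The spread of CXCL5 among RASv12 samples therefore did not have the same order on both probe sets. The third, 207852_at, gave 9.02, 3.23 and 5.27 in control samples and 47.9, 49.6 and 50.5 in RASv12 samples, at least 1.76-fold higher. Its log2 change was 1.62 ± 0.11 (limma p adjusted over all probe sets = 1.1e-04), far below that of the other probe sets of the same gene. With the mean of all 3 probe sets the change of CXCL5 was 4.72.

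CXCL6, also known as GCP-2, is the nearest relative of CXCL5 and one of the few members that also bind CXCR1 well. It was dim in control samples, at 14.9, 5.91 and 13.1, and gave 100.1, 175.8 and 95.1 in RASv12 samples. The difference was at least 4.24-fold, with a log2 change of 2.34 ± 0.23 (limma adjusted p = 5.1e-04). RASv12 replicate 2 stood above the other RASv12 samples, and without it the change was 2.10. The 95% interval of the change was 1.78 to 2.89, and with a pseudocount of 64 the change was 1.30. Since CXCL5 and CXCL6 were both dim in control samples, their log2 changes follow the RASv12 levels of different probe sets, and no difference in induction between them can be read from these values. The promoter windows of these genes, of which a stretch is printed above, were the most alike of the family.

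PPBP, a precursor that is trimmed into the platelet chemokine NAP-2, had the smallest measured change of the members. Its control samples gave 5.76, 0.743 and 6.63 and its RASv12 samples 18.6, 38.4 and 30.3. The RASv12 samples were all higher, but 1 of them was dim and their mean of 29.1 barely passed the dim level, so no fold is given. The log2 change of 1.15 ± 0.18 was called (limma adjusted p = 0.0037). With every value raised to the brightest bacterial control in place of a pseudocount, the change was 0.17 with limma adjusted p = 0.64, and the call ended.

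PF4, the neighbour of PPBP and another platelet chemokine, rose too. PF4 lacks the ELR motif, and its level went from 9.93, 11.5 and 10.3 in control samples to 39.4, 45.9 and 67.6 in RASv12 samples, at least 1.77-fold higher (limma adjusted p = 6.7e-04). Of 6 platelet markers, PF4 included, PF4 was the 1 that rose, beside 13.8% of all genes that rose, and 5 did not pass. ITGA2B, GP9, GP6 and TUBB1, which mark platelets and megakaryocytes, were dim in both groups. GP1BA, the remaining marker, was above the dim level in all 6 samples, at means of 37.8 in control and 52.5 in RASv12 samples, and did not pass. The summed level of the 6 markers was 109 to 139 in control samples and 146 to 240 in RASv12 samples.

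**Figure D2:**
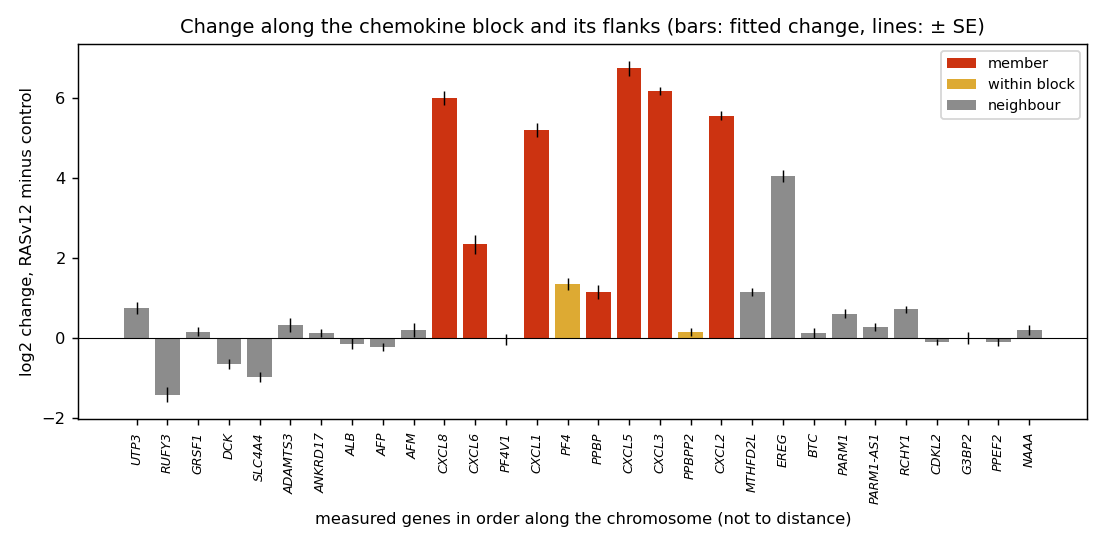
Fitted log2 change (RASv12 minus control, lines ± SE) of each measured gene in its order along chromosome 4, members in red, other genes of the block in yellow and the nearest 10 measured genes on each side in grey. The tall bars of CXCL8, CXCL1, CXCL5, CXCL3 and CXCL2 stand among low ones, such as PF4V1 at -0.035 and PPBP at 1.15, and EREG stands out among the flanking genes at 4.04.

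The members lie in one block in which genes with large and with small changes are interspersed. In the order of RefSeq, CXCL8 and CXCL6 come first, then PF4V1, CXCL1, PF4, PPBP, CXCL5, CXCL3, the transcribed pseudogene PPBPP2 and CXCL2. PF4V1, a close copy of PF4, was dim in both groups with a log2 change of -0.035 (limma adjusted p = 0.88), although it lies between CXCL6 and CXCL1. PPBPP2, between CXCL3 and CXCL2, was dim in both groups with 0.15 (limma adjusted p = 0.30). Of the 20 measured genes nearest the block, 10 on each side, 5 rose and 3 fell, or 8 of 20 beside 29.1% of all genes called in either direction. Their median change was 0.14.

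On the side of CXCL8, the nearest measured genes AFM, AFP and ALB, which encode proteins of liver plasma, were dim in both groups and did not pass. On the side of CXCL2, MTHFD2L, a mitochondrial folate enzyme, was at least 1.30-fold higher (limma adjusted p = 2.4e-04). The next measured gene, EREG, encodes epiregulin, a growth factor that activates the EGF receptor. It gave a mean of 18.9 in control samples and 569 in RASv12 samples, at least 20.2-fold higher (limma adjusted p = 8.0e-06). BTC, another EGF receptor ligand and the next gene along with a probe set of its own, was dim in both groups. PARM1, a membrane glycoprotein, was at least 1.44-fold higher, and RCHY1, a ubiquitin ligase, rose by 0.71 ± 0.091. UTP3, a nucleolar protein on the other side, rose by 0.75 ± 0.14. The 3 neighbours that fell all lay on the side of CXCL8. RUFY3, an adaptor of organelle transport, was at least 1.90-fold lower and the nucleoside kinase DCK at least 1.84-fold lower, and the bicarbonate transporter SLC4A4 fell by 0.98. With the mean of all probe sets SLC4A4 was at -0.13 (limma adjusted p = 0.52) and RCHY1 at 0.40 (limma adjusted p = 0.056), and both calls ended. RUFY3 was at -0.88 and not called (limma adjusted p = 0.084) with values raised to the brightest bacterial control.

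CXC chemokines of chromosome 4 without the ELR motif act on other cells, CXCL9, CXCL10 and CXCL11 on activated T cells and CXCL13 on B cells. Of 6 such genes, 3 rose, beside 13.8% of all genes that rose, and 3 did not pass. The median log2 change was 0.79. CXCL10 gave 21.3, 28.0 and 30.4 in control samples and 202, 171 and 160 in RASv12 samples, at least 6.15-fold higher (limma adjusted p = 6.7e-05). CXCL11 was at least 1.69-fold higher (limma adjusted p = 1.1e-04). PF4 was the third that rose. CXCL9 (0.24), CXCL13 (0.094) and PF4V1 were dim in both groups and did not pass.

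The messages of the family's receptors were not well above background in either group. CXCR1, CXCR2 and ACKR1, a scavenging receptor that binds the chemokines without signalling, were dim in all 6 samples, at mean intensities between 1.41 and 3.63. None of the 3 passed with limma, at log2 changes of 0.11, -0.19 and 0.030, and 0 passed at an unadjusted p under 0.05. With a pseudocount of 1, CXCR2 was called lower (limma adjusted p = 0.019) at intensities that were all dim.

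**Figure D3:**
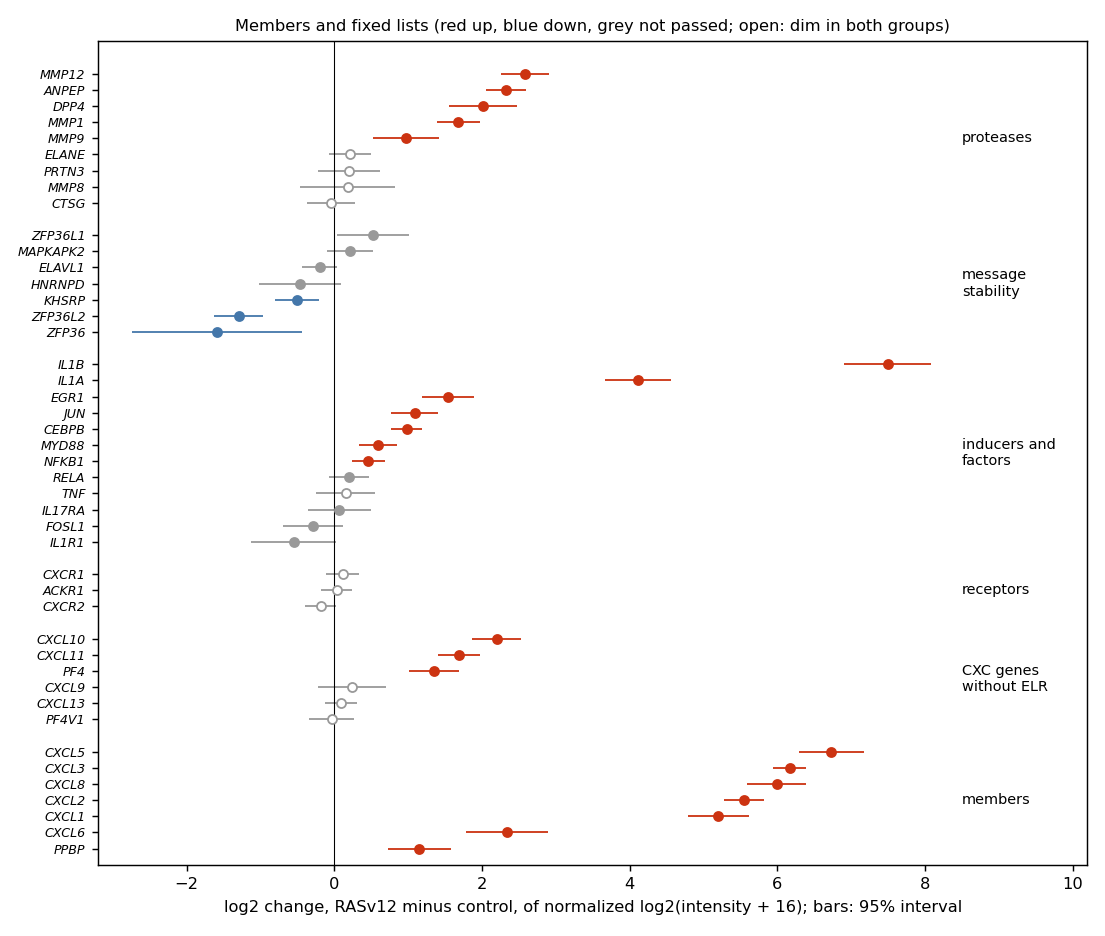
Fitted log2 change (RASv12 minus control) with its 95% interval for the 7 members and for the genes of 5 lists, red where called up, blue where called down, grey where not passed and open where dim in both groups. The members other than CXCL6 and PPBP lie above 5, a range that among the listed genes IL1B (7.50) also reached.

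Among 12 measured inducers and transcription factors of these chemokines, 7 rose, beside 13.8% of all genes that rose, and 5 did not pass. The median log2 change was 0.53. NFKBIZ, which was on the list, was not analysed here. IL1B, which encodes interleukin 1 beta, gave 8.40, 7.22 and 28.2 in control samples and 5294, 5055 and 5420 in RASv12 samples, at least 187-fold higher, with a log2 change of 7.50 ± 0.25 (limma adjusted p = 6.6e-06). IL1A, which encodes interleukin 1 alpha, was dim in control samples at 4.32, 2.50 and 13.5 and gave 356, 367 and 402 in RASv12 samples, at least 13.4-fold higher, with a log2 change of 4.12 on its brightest probe set. The other IL1A probe set was dim on average in both groups, overlapped between them and did not pass (0.14, limma p adjusted over all probe sets = 0.62), and with the mean of both the change of IL1A was 2.13. The receptor of both, IL1R1, was at -0.55 ± 0.24 and did not pass (limma adjusted p = 0.15). TNF, a further inducer of the family, was dim in both groups at means of 8.66 and 11.4 and did not pass.

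Of the signalling and transcription factor genes of the list, MYD88, the adaptor of the interleukin 1 receptor, rose by 0.59 ± 0.11, and NFKB1, which encodes an NF-kB subunit, by 0.46 ± 0.093. RELA, the gene of the transactivating NF-kB subunit p65, did not pass on its brightest probe set (0.20, limma adjusted p = 0.25) and was called on the other, at 0.67. CEBPB, a factor that acts with NF-kB on cytokine genes, rose by 0.98 ± 0.088. JUN, an AP-1 subunit, rose by 1.09 ± 0.13 and the early response factor EGR1 by 1.54 ± 0.15. FOSL1, another AP-1 subunit, was at -0.29 and did not pass, but was called lower without RASv12 replicate 3 (-0.48, limma adjusted p = 0.024).

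Chemokine messages carry AU-rich elements, and proteins that bind them set how long they last. Of 7 measured factors of this kind, 3 fell, beside 15.3% of all genes that fell, and 4 did not pass. The median log2 change was -0.47. ZC3H12A, also listed, was not analysed here. ZFP36, which encodes tristetraprolin, a protein that speeds the decay of such messages, gave 77.7, 104 and 136 in control samples and 64.4, 15.3 and 7.34 in RASv12 samples. The groups did not overlap, but RASv12 replicate 1 lay near the control samples, and the log2 change of -1.59 ± 0.48 was called by a narrow margin (limma adjusted p = 0.049). The call of ZFP36 ended with a pseudocount of 1 (limma adjusted p = 0.099) or 64 (0.053). It also ended with values raised to the brightest bacterial control (0.13) and with the replicate number as a block (0.096). The related ZFP36L2 fell by 1.30 (limma adjusted p = 6.8e-04), and KHSRP, another decay factor, by 0.51 on its brightest probe set (limma adjusted p = 0.023). The other KHSRP probe sets did not pass, at -0.074 and -0.51 (limma p adjusted over all probe sets = 0.87 and 0.067). The call of KHSRP was narrow too, and ended with a pseudocount of 1 (limma adjusted p = 0.066), with the replicate number as a block (0.060) and with scaling to the hybridization controls (-0.19, limma adjusted p = 0.34). ZFP36L1 (0.52), HNRNPD (-0.47), ELAVL1 (-0.20), which stabilizes such messages, and the kinase MAPKAPK2 (0.21), which restrains tristetraprolin, did not pass on their brightest probe sets. HNRNPD was read by 6 probe sets, and 4 of the others were called lower, at -1.08, -0.70, -0.65 and -0.78. With the mean of all probe sets HNRNPD was called (-0.63, limma adjusted p = 0.0011), so that 4 stability factors fell in place of 3. A second MAPKAPK2 probe set was called higher at 0.59 (limma p adjusted over all probe sets = 0.017).

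All 7 members were called with any 1 array left out, but the calls of the stability factors changed. Calls were fewer over all genes too, between 2542 and 3266 in these fits in place of 3482. Without control replicate 1, control replicate 2 or RASv12 replicate 2, 1 of the 7 stability factors was called lower in place of 3, and without control replicate 3 or RASv12 replicate 3 it was 2. Without RASv12 replicate 1, ZFP36 was at -2.15 (limma adjusted p = 0.0026) and ZFP36L1 was called higher (0.68, limma adjusted p = 0.047). In each of the other fits with 1 array left out, ZFP36 was not called (limma adjusted p between 0.077 and 0.15). KHSRP lost its call in 5 of the 6 fits, at adjusted p between 0.053 and 0.066, and kept it without control replicate 3. HNRNPD was called lower without RASv12 replicate 3 (-0.74, limma adjusted p = 0.0076). ZFP36L2 was called lower in each of these cases.

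Secreted chemokines of the family are trimmed by proteases, which can raise or end their activity. Of 9 measured proteases, 5 rose, beside 13.8% of all genes that rose, and 4 did not pass. The median log2 change was 0.97. MMP12, the macrophage elastase, was at least 4.93-fold higher (limma adjusted p = 3.3e-05). ANPEP, an aminopeptidase of the cell surface, rose from a mean of 122 to 674, by 2.32 ± 0.11. DPP4, a peptidase that removes the first residues of many chemokines, rose from 46.1 to 222, by 2.01 ± 0.19. Its other probe sets rose by 1.17 and 1.49. The collagenase MMP1 rose from 1237 to 4012, by 1.68 ± 0.12, and the gelatinase MMP9 from 30.1 to 72.3, by 0.97 ± 0.19. The neutrophil proteases CTSG, ELANE and PRTN3 and the neutrophil collagenase MMP8 were dim in both groups.

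The genes whose pattern was most like that of the members were PTPN12, TFPI2, SIK1, ICAM1 and ESM1. They had the highest Pearson correlation with the mean of the 7 members' centred log2 values over the 6 samples, from 0.9995 to 0.9990, among 318 genes that varied enough to be compared. With 2 groups of samples such a correlation mostly restates a large difference between groups with little spread inside them. PTPN12, a tyrosine phosphatase, gave 110.3, 110.0 and 118.3 in control samples and 515, 560 and 522 in RASv12 samples. TFPI2, a secreted protease inhibitor, rose by 3.03 and ICAM1, the adhesion molecule that neutrophils bind, by 3.40, both without dim samples.

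The identity of the samples was checked on HRAS and on marker genes. HRAS, a RAS gene, gave a mean of 215 ± 23.0 (SD, n = 3) in control samples and 853 ± 123 in RASv12 samples, without overlap, and rose by 1.89 ± 0.15 (limma adjusted p = 1.9e-04). All 10 fibroblast markers were above the dim level in both groups, although 8 of them fell, beside 15.3% of all genes that fell. Their summed level went from a range of 19125 to 21815 in control samples to 8084 to 9533 in RASv12 samples. All 6 monocyte and macrophage markers and all 6 neutrophil markers were dim in both groups. The summed monocyte level was 21.7 to 27.6 in control and 47.8 to 80.9 in RASv12 samples, and CSF1R and AIF1 of that list and CSF3R of the neutrophil list were called higher at dim intensities. Of 5 endothelial markers VWF, CDH5 and KDR were dim in both groups, and all 5 had sums of 102 to 128 and 47.2 to 99.8. TEK had a control mean of 78.6 and fell (limma adjusted p = 0.0028), and PECAM1, dim in control samples, did not pass. Of 5 epithelial markers EPCAM, CDH1 and KRT5 were dim in both groups, and all 5 had sums of 148 to 159 and 138 to 164. KRT18 was above the dim level in all 6 samples (means 88.0 and 115) and did not pass. KRT8 fell (limma adjusted p = 0.048) and was dim in RASv12 samples. In bulk samples, fewer cells that express a gene and less message per cell cannot be told apart.

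**Figure D4:**
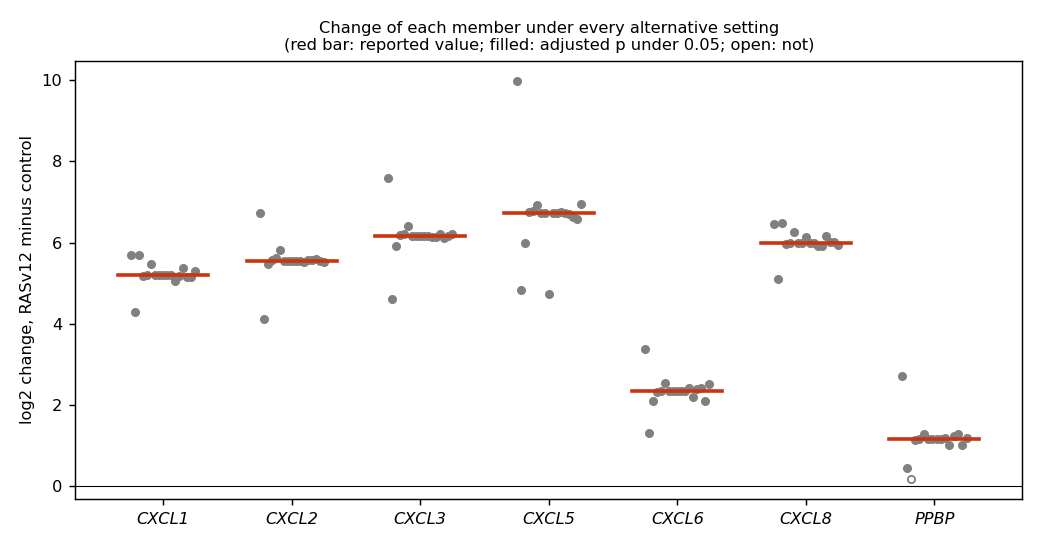
Log2 change (RASv12 minus control) of each member under every alternative setting, as grey points that are filled where the adjusted p was under 0.05 and open where not, with the reported value as a red bar. All points lie above 0, and the 1 open point is that of PPBP at 0.17.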

How the data were processed

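The authors deposited 1 table of linear signal intensity for each probe set of 6 arrays, and the submitters' processing notes name MAS5, without its version. The 2% trimmed mean was 100.0 on every array, so brightness had been scaled before deposit. Per the labels' protocols, RNA was amplified in 2 rounds. Each array had 48.6% to 54.1% of probe sets above the dim level. Of the probe sets tested, 19065 had 1 gene symbol, 1043 had several and 2107 had none. The 68 control probe sets were left out. Symbols were updated through RefSeq (GRCh38.p14).

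Values were quantile normalized as log2(intensity + 16), a scale that compresses changes of dim genes, and tested with limma 3.58.1 (lmFit, eBayes) in R 4.3.3 in 1 fit over 22215 probe sets, tested on simulated data. A gene was represented by its probe set with the highest mean, and p-values were adjusted over 11963 genes with a threshold of 0.05. Errors are standard errors of the fit with 3 samples in each group unless SD is written.

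Members and lists were chosen with earlier results of these data known. Named are all members, the called genes of each list and up to 4 that did not pass, and the 5 genes most like the members. Other probe sets of RELA, IL1A, HNRNPD, MAPKAPK2, KHSRP and DPP4, PPBPP2 and uncalled neighbours and markers were named after their values were seen. Alternatives were other pseudocounts, a floor, other scalings, filters on dim probe sets, the mean of probe sets, the replicate number as a block and leaving out each array.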

Additional observations from a re-analysis of the deposited data

How the results depend on the processing

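Over 118 refits of single members, all 118 kept the direction and 117 the call. The exception was PPBP with values raised to the brightest bacterial control (0.17, limma adjusted p = 0.64), and with the dimmest 50% of probe sets left out PPBP was not tested. Adjusted p reached at most 5.6e-04 for CXCL1, CXCL2, CXCL3, CXCL5 and CXCL8 and 0.0095 for CXCL6. CXCL6 ranged from 1.30 to 3.37, with the pseudocount moving it most, and CXCL5 from 4.72 to 9.99, with the pseudocount and the choice of probe set moving it most. The members called were 6 or 7 throughout.

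With a pseudocount of 1, 1 of 3 receptors was called (CXCR2, lower) and 1 stability factor in place of 3. Over all genes, 2640 were called with that pseudocount in place of 3482. Without the dimmest 50% of probe sets, 1 CXC gene without ELR was called in place of 3 and 6 neighbours in place of 8, since fewer genes were tested. With that filter 3323 of 6881 genes were called, against 3482 of 11963. The 18 hybridization controls had a mean log2 difference of -0.34 (RASv12 minus control). Scaling to them shifted the median log2 change over all genes to 0.20, against 0.020, and gave 2822 genes up and 1050 down, against 1647 and 1835. It gave 3 called stability factors, 2 up and 1 down, with KHSRP and ZFP36 no longer called. Leaving out 1 array at a time gave 1 to 3 called stability factors and 7 to 8 inducers, beside 2542 to 3266 called over all genes. Except as stated, the cause was not tested.

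The replicate number did not pair the samples. Deviations of samples with the same number correlated at -0.23, -0.028 and -0.070, and 0 of 6 samples correlated best with its own number. With the number as a replicate block, all 7 members were called, 2601 genes were called in place of 3482, and 1 stability factor was called. A fit on 1 probe set for each gene, added after the data were examined, called 3530 genes and all 7 members. Dim control levels limit the folds of CXCL2, CXCL3, CXCL5, CXCL6 and PPBP to lower bounds or none.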
